A study of Arabidopsis thaliana with 12 samples.

Results

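XTH16 (AT3G23730), XTH18 (AT4G30280), XTH19 (AT4G30290), XTH20 (AT5G48070) and XTH33 (AT1G10550) encode xyloglucan endotransglucosylase/hydrolases of Arabidopsis thaliana. They were found by locus in the array's annotation, and each of the 5 genes was read by 1 probe set that the annotation gives to no other gene, out of 13286 genes measured and 22746 probe sets tested. The samples are whole seedlings of the line Col:LUC, labelled as ecotype Col-0, with 1 Affymetrix array for each RNA extract from a weighed pool of seedlings and 3 biological replicates in each of 4 groups. All seedlings spent 10 days on B5, a plant culture medium, before a transfer to fresh plates for 3 more days. The group called B5 stayed on plain B5 and was not treated further, and the group B5 plus antimycin A received 50 µM antimycin A for 3 hours. The group NAA spent those 3 days on B5 that held 4.5 µM NAA, a synthetic auxin, and the group NAA plus antimycin A had both the auxin and the 3 hours of antimycin A. Antimycin A blocks mitochondrial electron transport at complex III. The labels do not say whether seedlings without antimycin A received its solvent, so solvent and drug cannot be told apart.

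Xyloglucan is the main hemicellulose of growing primary walls in Arabidopsis and coats or bridges cellulose microfibrils. XTH enzymes cut a xyloglucan chain and join the new end to another chain, or to water, and so remodel the wall during growth and after injury. The family is large, and its members differ in the tissues and the signals, among them auxin, touch and stress, that bring them on. XTH18, XTH19 and XTH20 belong to a cluster of close relatives with XTH17 and are known from growing roots, and XTH19 and XTH20 are also known from the rejoining of cut stems. In the RefSeq gene order XTH18 and XTH19 are direct neighbours on the chromosome, with no protein-coding gene between them.

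The arrays had median intensities of 33.7 to 39.7, and their number limits the precision. Replicate arrays correlated at 0.990 or above over probe sets. Seedling parts could be checked only in part, since none of the 11 fixed root markers had a named probe set. Summed over 4 lateral root markers (LBD16, LBD29, PUCHI and PGLR), the intensity was 115 to 178 for B5 and 48.3 to 85.4 once antimycin A was added, and it was 782 to 1094 for NAA and 262 to 306 for both treatments. The 2 measured root hair markers of 7, EXPA7 and EXPA18, summed to 124 to 202, 20.7 to 21.2, 468 to 648 and 45.04 to 64.1 in the same order of groups. For the 5 measured markers of 8 for green shoots (LHCB4.2, PSAN, PSAE-1, PRK and RCA), the sums were 46843 to 48194, 28356 to 33923, 30694 to 32708 and 15828 to 21356. With antimycin A, LHCB4.2 and PSAN were called lower on both media, PSAE-1 only on NAA, PRK only on B5 and RCA on neither. The lateral root markers did not all move as their sum did. With antimycin A on NAA, LBD16 rose from 37.55 to 94.47 in mean intensity while the other 3 fell. On B5, PGLR (110 to 38.09) was the 1 lateral root marker called lower with antimycin A, and 3 were not called. In whole seedlings, fewer cells of a type and less RNA per cell cannot be told apart. Ribosomal RNA of 25S, read by a control probe set, gave 4993 to 5651 for B5, 8135 to 8446 for antimycin A alone, 5584 to 6535 for NAA alone and 11673 to 12276 for both. The GAPDH 3'/5' ratio, a sign of RNA quality, was 9.24 to 13.9 for B5, 10.1 to 26.5 for antimycin A alone, 13.5 to 48.9 for NAA alone and 11.9 to 28.7 for both. Replicate 2 had the highest ratio in each of the last 3 groups (26.5, 48.9 and 28.7), and on those same arrays XTH16 and XTH33 were the highest and XTH20 the lowest of their groups. These marker sums and controls thus moved with the groups compared below or with replicates, and their part in the XTH values was not tested.

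XTH18 had the widest range of the 5 genes. Its probe set read 47.7, 29.8 and 33.7 on the B5 arrays and 1097, 1154 and 1710 on those of B5 plus antimycin A. It read 117, 137 and 83.9 on NAA and 734, 736 and 843 on NAA plus antimycin A. No group overlapped another: plain B5 was lowest, NAA was next, and the groups with antimycin A were highest, with the B5 group above the NAA group. Each step in that order passed the test, although the step between the 2 groups with antimycin A did so only at an adjusted p = 0.0326, and lost its call in 6 of 23 alternative settings.

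XTH19, the gene next to it, separated the media. It read 340, 210 and 150 on B5 and 264, 311 and 335 on B5 plus antimycin A. On NAA it read 694, 707 and 485, and on NAA plus antimycin A 1065, 729 and 1038. All 6 arrays from NAA lay above all 6 from B5, whereas the 2 groups on B5 overlapped and replicate 1 of the B5 group was the highest of those 6 arrays. Its means ran upward from plain B5 through antimycin A alone and NAA alone to both treatments. The middle step, from antimycin A alone to NAA alone, passed the test (log2 fold change 1.00 ± 0.28 SE, adjusted p = 0.0182), and the first and the last did not. That middle call was lost without replicate 1 of B5 plus antimycin A and without replicate 1 or 2 of NAA, 3 of 23 alternative settings (adjusted p of 0.00208 to 0.0637).

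XTH20 responded to antimycin A and was highest with both treatments. The intensities were 108, 115 and 97.7 on B5 and 241, 163 and 294 on B5 plus antimycin A. They were 91.9, 90.8 and 107 on NAA and 495, 390 and 402 on NAA plus antimycin A. The groups without antimycin A overlapped and did not differ by the test, B5 plus antimycin A lay above both, and NAA plus antimycin A lay above all other arrays.

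XTH33 was a dim probe set: on the plain B5 arrays 34.4% to 35.5% of all probe sets read lower. It read 10.3, 10.6 and 10.0 on B5 and 45.9, 76.2 and 54.9 on B5 plus antimycin A. On NAA it read 28.1, 30.8 and 26.2, and on NAA plus antimycin A 42.6, 47.4 and 41.6. Plain B5 was lowest and NAA alone second, with no overlap, and the 2 groups with antimycin A overlapped above them and were not separated by the test. The table holds no detection call, and the B5 values lie below the constant of 16 that was added before logarithms were taken, so the fitted changes understate those of the intensities.

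XTH16 alone of the 5 was called lower on NAA both with and without antimycin A. It read 69.9, 95.1 and 95.7 on B5 and 124, 161 and 123 on B5 plus antimycin A. It read 48.6, 58.6 and 48.1 on NAA and 56.0, 73.8 and 55.4 on NAA plus antimycin A. Its means ran upward from NAA alone through both treatments and plain B5 to antimycin A alone, and the first 2 steps had overlapping arrays and did not pass the test. From NAA plus antimycin A to plain B5 the adjusted p = 0.0582, a difference that was called in 10 of 23 alternative settings (0.00722 to 0.174).

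**Figure D1:**
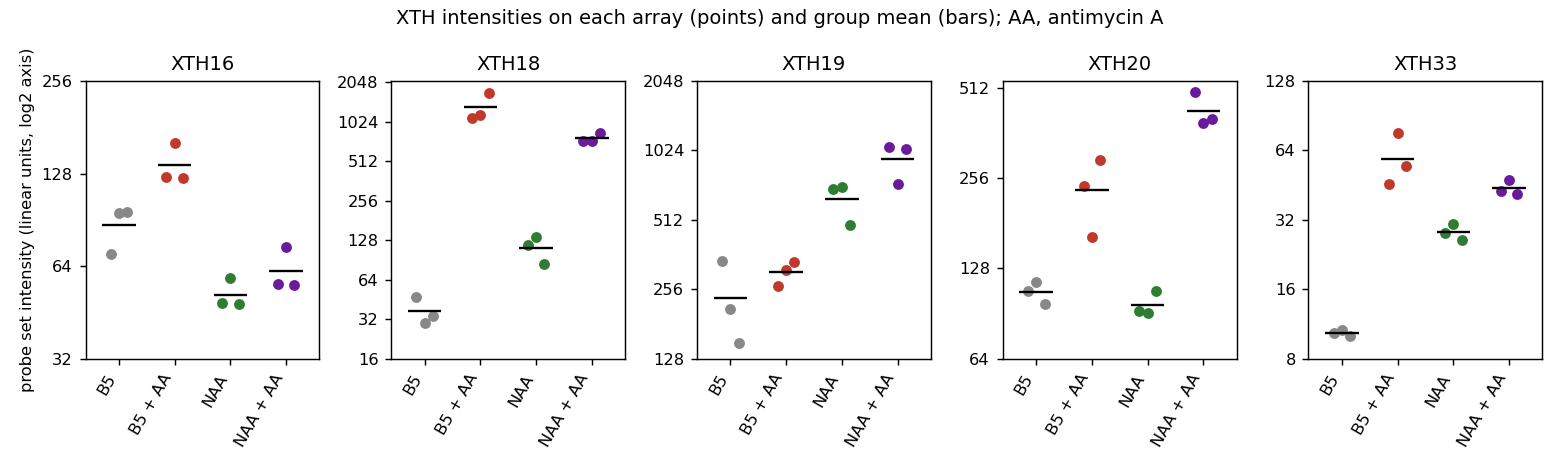
Probe set intensity (linear units on a log2 axis) of XTH16, XTH18, XTH19, XTH20 and XTH33 on each of the 12 arrays, by group, with points for arrays and black bars for the mean of 3 arrays; AA is antimycin A. XTH18 rises from 29.8 to 47.7 on B5 to 1097 to 1710 with antimycin A, while XTH19 separates the 6 NAA arrays from the 6 B5 arrays.

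Antimycin A on B5 raised XTH16, XTH18, XTH20 and XTH33. Beside these 4 of 5 genes, 14.3% of all probe sets were called higher and 18.7% lower in this comparison. Calls were by limma with Benjamini-Hochberg adjustment over all probe sets and a threshold of 0.05. The 5 genes were chosen with earlier results of these data known. Their counts, here and in the comparisons below, are therefore no test of these genes against the array. XTH18 went from 37.1 ± 9.41 to 1320 ± 338 (SD, n = 3), 35.6 times the mean intensity, which is 4.64 ± 0.21 (SE) on the log2 scale at an adjusted p = 7.48e-07. Only 38 of the 22746 probe sets had a larger fitted rise. XTH33 went from 10.3 ± 0.305 to 59.0 ± 15.5, 5.72 times in intensity, with a log2 fold change of 1.49 ± 0.12 (adjusted p = 1.79e-05) that ran from 0.72 to 2.38 as the added constant went from 64 to 1. XTH20 went from 107 ± 8.65 to 233 ± 65.7 (0.98 ± 0.18, adjusted p = 0.00233). For XTH16 the rise was smaller, from 86.9 ± 14.7 to 136 ± 21.6 (0.57 ± 0.14, adjusted p = 0.0126), and with only the 6 B5 arrays in the fit its adjusted p = 0.0514 (0.00177 to 0.0514 over 23 alternatives). XTH19 went from 234 ± 97.2 to 303 ± 36.0, a log2 fold change of 0.42 with a 95% interval of -0.21 to 1.04 (adjusted p = 0.307). Its 3 B5 arrays differed from each other by more than its 2 group means did. The value was 0.71 without replicate 1 of B5 (adjusted p = 0.0515) and 0.16 without replicate 3 of B5 (adjusted p = 0.693), neither of them called.

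In seedlings on NAA, antimycin A raised XTH18, XTH20 and XTH33, which is 3 of 5 genes against 11.6% of all probe sets higher and 13.2% lower. XTH18 went from 112 ± 26.6 to 771 ± 62.5 (log2 2.63 ± 0.21, adjusted p = 2.37e-05), 6.85 times in mean intensity, and 137 probe sets had a larger fitted rise. XTH20 went from 96.7 ± 9.26 to 429 ± 57.1, or 4.44 times (1.98 ± 0.18, adjusted p = 5.56e-05). The rise of XTH33 was small, from 28.4 ± 2.35 to 43.9 ± 3.14 (0.43 ± 0.12, adjusted p = 0.0278). Its call was lost in 6 of 23 alternative settings, namely with 64 as the added constant (0.22) and without replicate 1 or 3 of NAA or any of the 3 replicates of NAA plus antimycin A (adjusted p of 0.00124 to 0.0903 over the 23). XTH19 went from 629 ± 125 to 944 ± 187, with arrays that did not overlap but a log2 fold change of 0.57 that was not called (95% interval -0.05 to 1.199, adjusted p = 0.184). XTH16 had a value of 0.19 (95% interval -0.13 to 0.52, adjusted p = 0.406), and 0.09 without replicate 2 of NAA plus antimycin A.

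After 3 days of NAA without antimycin A, XTH18, XTH19 and XTH33 were higher and XTH16 was lower than on B5. Of all probe sets, 10.7% were called higher and 9.67% lower. XTH19 went from 234 ± 97.2 to 629 ± 125 (log2 1.42 ± 0.28, adjusted p = 0.00602). XTH18 went from 37.1 ± 9.41 to 112 ± 26.6, or 3.04 times (1.27 ± 0.21, adjusted p = 0.00245), and XTH33 went from 10.3 ± 0.305 to 28.4 ± 2.35 (0.75 ± 0.12, adjusted p = 0.00216). XTH16 fell from 86.9 ± 14.7 to 51.8 ± 5.90 (-0.60 ± 0.14, adjusted p = 0.0167), a call lost without replicate 2 or 3 of B5 or replicate 1 of NAA (adjusted p of 0.00282 to 0.0624 over 23 alternatives). With 64 as the added constant the log2 changes were 0.80 for XTH18, 0.31 for XTH33 and -0.38 for XTH16, and with 1 it was 1.37 for XTH33, all of them called. XTH20 did not pass the test, at -0.12 with a 95% interval of -0.53 to 0.28 (adjusted p = 0.699). With each array centred on its median, 12002 probe sets were called and 17.8% of these were higher, against 4637 and 52.6% as deposited, while the directions of the 5 XTH genes did not change.

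Among seedlings with antimycin A, those on NAA had more XTH19 and XTH20 and less XTH16 and XTH18 than those on B5. Here 12.2% of all probe sets were called higher and 9.74% lower. XTH19 went from 303 ± 36.0 to 944 ± 187 (log2 1.58 ± 0.28, adjusted p = 0.00342), and XTH20 from 233 ± 65.7 to 429 ± 57.1 (0.87 ± 0.18, adjusted p = 0.00795). XTH16 fell from 136 ± 21.6 to 61.7 ± 10.4 (-0.97 ± 0.14, adjusted p = 0.00132). XTH18 was lower on NAA here, at 771 ± 62.5 against 1320 ± 338 (-0.74 ± 0.21, adjusted p = 0.0326). That call was lost with only the 6 arrays compared, with replicate numbers as a block, without replicate 3 of B5 plus antimycin A and without any of the 3 replicates of NAA plus antimycin A (adjusted p of 0.00549 to 0.0942 over 23 alternatives). With only the 6 arrays compared, XTH20 also missed the threshold (adjusted p = 0.0667, with 8.42e-04 to 0.0667 over the 23). For XTH33 the value was -0.31 (95% interval -0.58 to -0.03, adjusted p = 0.109). It was called under quantile normalization, under median centring and without replicate 1 of B5 plus antimycin A (adjusted p of 0.00988 to 0.276 over the 23). The value was -0.43 without that replicate and -0.15 without replicate 2 of the same group. Centred on array medians, 13365 probe sets were called with 17.8% of them higher, against 4994 and 55.6%.

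**Figure D2:**
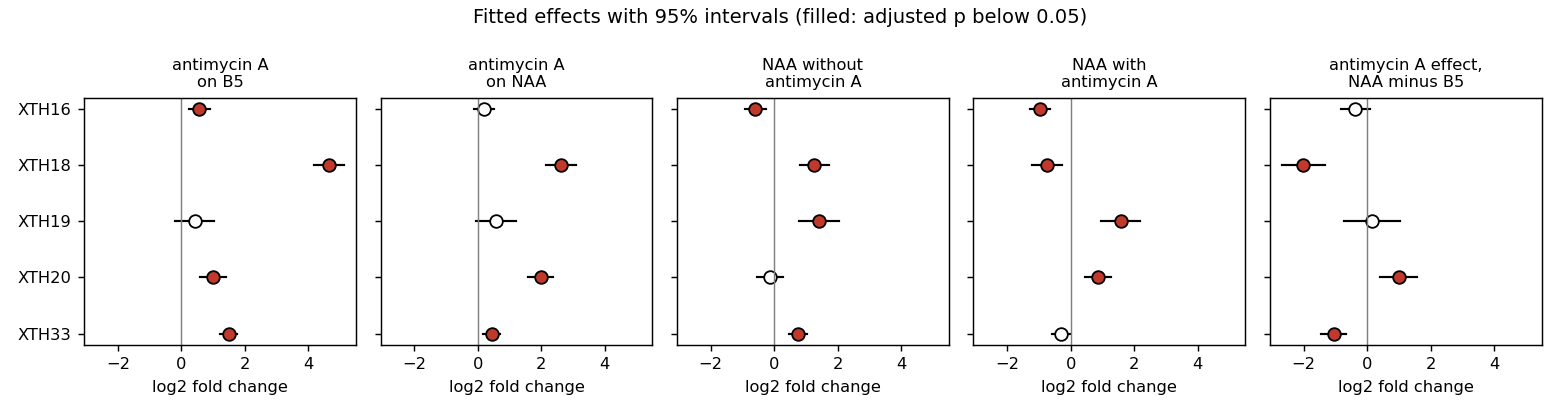
Fitted log2 fold change (horizontal axis) of each XTH gene (vertical axis) in 5 comparisons, 1 panel each, with 95% intervals as lines and filled points for an adjusted p below 0.05. XTH18 stands at 4.64 and 2.63 for antimycin A on B5 and on NAA, and XTH19 at 1.42 and 1.58 for NAA without and with antimycin A.

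The response to antimycin A itself differed between the media for 3 of the 5 genes, in different directions. The test subtracted the effect on B5 from that on NAA, and here 5.14% of all probe sets were called higher and 4.39% lower. XTH18 had an antimycin A effect of 4.64 on B5 and 2.63 on NAA, a difference of -2.01 ± 0.29 (log2, SE; adjusted p = 0.00393). XTH33 had effects of 1.49 and 0.43, a difference of -1.06 ± 0.17 (adjusted p = 0.00601). For both genes the level without antimycin A was higher on NAA. The difference for XTH33 was called in all 22 alternative settings, with sizes from -1.76 with an added constant of 1 to -0.50 with 64. XTH20 went the other way, with effects of 0.98 on B5 and 1.98 on NAA and a difference of 0.99 ± 0.25 (adjusted p = 0.0418). Its levels without antimycin A on the 2 media were not separated by the test. The call of this difference was lost in 10 of 22 alternative settings, namely the replicate block and the removal of any 1 array other than replicates 2 and 3 of B5 plus antimycin A and replicate 3 of NAA (adjusted p of 0.00919 to 0.0949 over the 22). XTH19 and XTH16 had differences of 0.15 (95% interval -0.73 to 1.04) and -0.37 (-0.83 to 0.08), neither of them called.

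Comparisons across both treatments placed the remaining groups. NAA plus antimycin A against plain B5, where 33.3% of all probe sets were called in either direction, gave called differences for 4 of 5 genes. They were log2 3.90 for XTH18, 2.00 for XTH19, 1.85 for XTH20 and 1.18 for XTH33, with -0.40 for XTH16, which was not called. NAA alone against antimycin A alone, where 39.9% of probe sets were called, separated all 5 genes. XTH19 was higher with NAA alone (1.00), and XTH18 (-3.37), XTH16 (-1.16), XTH20 (-1.11) and XTH33 (-0.74) were higher with antimycin A alone. For XTH33 the first value ran from 0.54 to 1.98 with constants of 64 and 1, and the second was -0.41 with 64.

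Whether any 2 of the genes responded by different amounts was tested for the 10 pairs under each treatment, as the mean effect over both levels of the other treatment, by exact permutation of the arrays within those levels. There were 400 rearrangements, the smallest two-sided p they can give is 0.005, and p-values were adjusted over the 20 tests. Under antimycin A 7 of 10 pairs differed. How often pairs of other genes on the array differ was not tested. Neither this count nor the one under NAA therefore sets these genes apart from others. XTH18 exceeded XTH19 by 3.14 log2 units, XTH33 by 2.67 and XTH20 by 2.16, and XTH16 minus XTH18 was -3.26 (exact permutation, adjusted p = 0.0125 for each). The gap of XTH18 over XTH20 was 3.66 on B5 and 0.66 on NAA. XTH19 minus XTH20 was -0.98 (exact permutation, adjusted p = 0.0273) and XTH16 minus XTH20 was -1.10 (exact permutation, adjusted p = 0.0333). XTH16 minus XTH33 was -0.58 (exact permutation, adjusted p = 0.0125), and -0.21 and -1.05 with added constants of 64 and 1. The test did not separate XTH16 from XTH19 (-0.12), XTH19 from XTH33 (-0.47) or XTH20 from XTH33 (0.52), and the last joins -0.51 on B5 with 1.54 on NAA.

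Under NAA 6 of 10 pairs differed. XTH16 lay below each of the others, by -2.28 log2 units for XTH16 minus XTH19, -1.16 minus XTH20, -1.05 minus XTH18 and -1.01 minus XTH33 (exact permutation, adjusted p of 0.0125 to 0.0385). These gaps were uneven: XTH16 minus XTH18 was -1.86 without and -0.23 with antimycin A, and XTH16 minus XTH20 was -0.47 and -1.84. With a constant of 64, XTH16 minus XTH33 was -0.59 and XTH16 minus XTH18 was -0.57, the latter no longer called. XTH19 exceeded XTH33 by 1.28 (exact permutation, adjusted p = 0.02) and XTH20 by 1.13 (exact permutation, adjusted p = 0.0125). XTH18 minus its chromosomal neighbour XTH19 was -1.23 and missed the threshold (exact permutation, adjusted p = 0.0571), with -0.15 in the absence and -2.31 in the presence of antimycin A. For the antimycin A effect the same pair differed by 4.22 on B5 and 2.06 on NAA. XTH18, XTH20 and XTH33 were not separated from each other under NAA, where the mean effect joins values of opposite sign for each of the 3 genes.

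**Figure D3:**
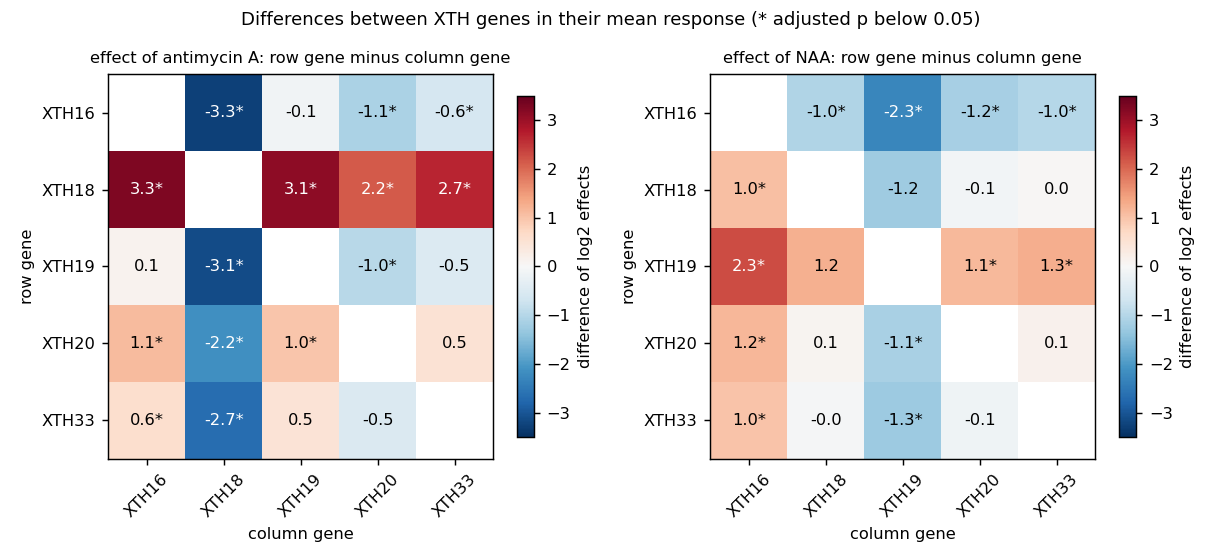
Difference between the log2 effects of 2 XTH genes (row gene minus column gene; colour and printed value) for antimycin A (left) and NAA (right), averaged over both levels of the other treatment, with * for an adjusted p below 0.05. The XTH18 row is 2.2 to 3.3 above the other genes under antimycin A, and the XTH19 row is 1.1 to 2.3 above them under NAA.

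Of 28 further loci of the family, 5 had a named probe set: XTH21, XTH26, XTH27, XTH29 and XTH32. On B5, XTH32 alone of these was called, with a fall from 351 ± 29.7 to 89.8 ± 18.7 (log2 -1.80 ± 0.19, adjusted p = 1.01e-04), and the median over the 5 was 0.01, as over all probe sets. On NAA, XTH32 fell by 1.37, XTH26, a root hair enzyme, fell by 0.60, and XTH27, known from developing vessels of leaves, rose by 0.61 (median -0.14, against 0.01 over all probe sets). Of all probe sets, 14.3% were called higher and 18.7% lower on B5, and 11.6% and 13.2% on NAA. NAA alone raised XTH26 by 0.60, from 4.75 to 15.6 in intensity, and lowered XTH27 by 0.41, where 10.7% of all probe sets were called higher and 9.67% lower. The antimycin A effect on XTH26 differed between the media by -0.61. With antimycin A its means were 4.89 on B5 and 4.81 on NAA. All 4 group means lay below the added constant of 16, so a fall on B5 could hardly show. With antimycin A, NAA against B5 gave no call by limma among these 5, nor any at an unadjusted p below 0.05. XTH21 and XTH29 were not called in any of these comparisons and read 12 or less as group means.

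Most expansins that passed the test under antimycin A were lower. Of 16 measured expansins (of 28), which loosen walls without cutting their polymers, 9 fell and 2 rose on B5, with a median of -1.12 against 0.01 over all probe sets. EXPA8 fell by 3.24 and EXPB3 by 2.67, while the expansin-like EXLA1 and EXLA3 rose by 1.94 and 0.92. On NAA 8 fell and 2 rose (median -0.70), with EXPB2 at -4.33, EXPA18 at -2.84, EXLA3 at 1.15 and EXLA2 at 0.19. EXLA2 was dim, with means of 4.86 without and 7.83 with antimycin A there, below the added constant of 16. Of 5 pectin modifying genes (of 11), 1 rose and 2 fell on each medium. The 2 that were not called, PGX2 and PGX3, had group means of 6.62 or less. Set against both lists, the shares of all probe sets called were 14.3% higher and 18.7% lower on B5, and 11.6% and 13.2% on NAA. The pectin methylesterase PME41 rose by 3.12 on B5 and 1.11 on NAA (difference -2.02, called). PGLR, a polygalacturonase, fell by 1.24 on B5 and had a log2 fold change of -2.82 on NAA, and PME35 fell by 0.58 and 0.67.

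Called changes of xyloglucan backbone genes under antimycin A stayed below 1 log2 unit. Of 13 listed genes of xyloglucan synthesis, 5 glucan synthases of the CSLC family were measured. CSLC4, the main backbone synthase, rose by 0.75 on B5 and 0.69 on NAA, CSLC5 fell by 0.40 on B5 and rose by 0.39 on NAA (a called difference of 0.79), CSLC8 fell by 0.42 on B5 and CSLC6 by 0.40 on NAA. The medians of the 5 were -0.18 on B5 and -0.05 on NAA. BGLC1, a beta-glucosidase that trims xyloglucan and the 1 measured breakdown gene of 4, rose by 0.43 on B5 and was not called on NAA (difference -0.68, called). COB, needed for oriented cellulose deposition and the 1 measured gene of 8 for cellulose synthesis, was not called on B5 and fell by 0.39 on NAA (difference -0.44, called).

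Without antimycin A, 6 of 16 expansins rose and 3 fell (median 0.01, against -0.01 over all probe sets), with EXPB2 at 4.88, EXLB1 at 1.79, EXPB3 at -1.19 and EXPA15 at -0.95. The shares of all probe sets called in that comparison were 10.7% higher and 9.67% lower. PGLR rose by 2.19 and BGLC1 by 0.48, while PME35 fell by 0.77 and CSLC4 by 0.45. With antimycin A, 5 expansins rose (median 0.32, against -0.01), among them EXLB1 at 2.30 and EXPA18 at 0.88, while 12.2% of all probe sets were called higher and 9.74% lower. There CSLC5 rose by 0.67, and PME41 fell by 1.39, PME35 by 0.86, CSLC4 by 0.50 and COB by 0.49. For the difference of antimycin A effects, 4 expansins were called higher and 2 lower, against 5.14% and 4.39% of all probe sets. Among them were EXPA8 at 2.22, EXPB3 at 1.63, EXPB2 at -4.27 and EXPA7 at -1.58, and PGLR was called lower at -1.58. EXPB2 had means of 653 on NAA and 17.0 on NAA plus antimycin A. On B5 its means were 6.21 without and 5.33 with antimycin A, below the added constant of 16, so a fall there could hardly show. EXPA7 went from 28.6 to 4.99 on B5 and from 137 to 8.20 on NAA, so low signal also limits its difference.

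**Figure D4:**
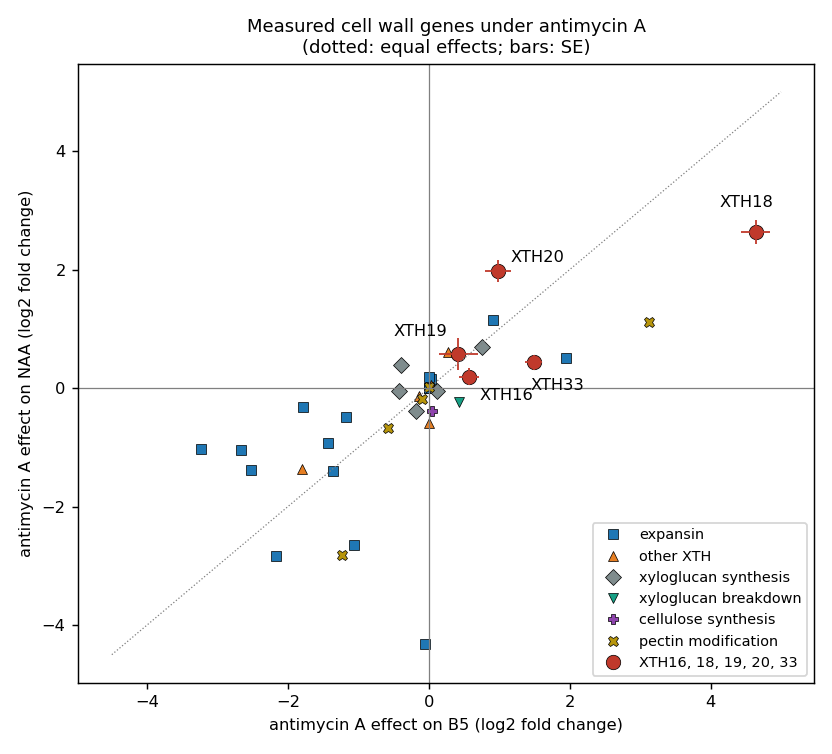
Antimycin A effect on B5 (horizontal) and on NAA (vertical), both as log2 fold change, for the 5 XTH genes (red, with SE bars) and the measured genes of 6 other wall lists; the dotted line marks equal effects. XTH18 lies at 4.64 and 2.63, below the line, XTH20 at 0.98 and 1.98, above it, and most expansins lie in the lower left.

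The genes whose pattern over the 12 arrays was most like each XTH gene were taken from 13281 measured genes, by Pearson correlation of log2 values. The genes share these 12 arrays and their 4 conditions, so the values are given as a description. For XTH18 they were AT3G55470 (0.994), AT1G18390 (0.992) and AT5G48540 (0.991). AT5G48540 had mean intensities of 62.9 for plain B5, 2067 for antimycin A alone, 220 for NAA alone and 1196 for both, the same order of groups as XTH18. For XTH20 they were AT3G43430 (0.982), AT3G54520 (0.981) and AT5G64250 (0.980), each highest with both treatments, and AT5G64250 reached 1561 there against 157 on B5. XTH33 was matched by AT1G74790 (0.972), AT5G64130 (0.972) and VPS20.1 (0.969), and XTH19 by AT1G07830 (0.972), AT3G04560 (0.961) and BGLU15 (0.957). For XTH16 the closest were AT1G80580 (0.980), AT5G57570 (0.964) and AT5G38760 (0.961), whose group means were all 6.96 or less, below the added constant of 16. Among the 5 genes themselves, XTH18 was most like XTH33 (0.936) and XTH20 (0.799), and its correlation with its neighbour XTH19 was 0.358.

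Within 3 protein-coding genes on either side of each locus in the RefSeq order, 9 further genes were measured, and with antimycin A on B5 1 of these rose and 2 fell. Over all probe sets 14.3% were called higher and 18.7% lower there, so these counts lie near the share on the whole array. Beside XTH16, AT3G23760 fell by 0.64 and AT3G23740 by 0.14, and beside XTH33, AT1G10580 rose by 0.29. AT4G30310 and AT4G30320, which follow XTH19, were not called on B5 (-0.03 and -0.45), but AT4G30320 rose by 1.70 with NAA, as XTH19 did, and fell by 1.92 when antimycin A was added there. AT4G30310, the nearer of these to XTH19, was at -0.29 with NAA alone and was not called. With NAA alone AT5G48110 rose by 1.25 beside XTH20 and AT1G10530 rose by 0.38 beside XTH33. Beside XTH16, AT3G23760 fell by 1.45 and AT3G23740 by 0.13 with NAA alone. Over all probe sets 10.7% were called higher and 9.67% lower in that comparison, and whether the neighbours depart from this share was not tested. These neighbours were chosen by position, after the XTH values were known.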

How the data were processed

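All 12 columns of the deposited table were assigned through their names, and the authors' values are linear intensities, 1 per probe set and array. Per the labels' protocols, 400 ng of total RNA went into each biotin labelling. MAS5, RMA and Partek appear in the submitters' processing notes without role, order or version, and the sources used here do not say which made the values. The 64 control probe sets among 22810 rows were removed. Probe sets took genes from the platform annotation (13513 with 1 gene, 503 with several, 8730 unnamed here), and names and gene order come from RefSeq's table of TAIR10.1, without coordinates. For genes with more than 1 probe set the brightest was taken.

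Values were analysed as log2(intensity + 16). limma 3.58.1 in R 4.3.3 fitted 1 mean per group to all 12 arrays (8 residual degrees of freedom) with eBayes. Tests were two-sided, p-values were adjusted across every tested probe set (Benjamini-Hochberg), and 0.05 was the threshold for a call. Errors are SD of intensities or SE of fitted changes. Scripts were tested on simulated data. The 5 XTH genes and the lists were chosen with earlier results of these data known. Named genes are the XTH genes, every called XTH relative, up to 2 largest called rises and falls per other wall list, and the 3 most similar genes per XTH gene. Both comparisons across 2 treatments and the neighbours were added after the values were seen. Alternatives were other scalings, added constants of 1, 4 and 64, a filter on a mean intensity of 32, other variance models, array weights, 2-group fits, a replicate block and leaving out each array. No sequences were used.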

Additional observations from a re-analysis of the deposited data

Results flagged for a closer look

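For 3 genes the antimycin A effect on NAA differed from that on B5 by the test of the difference itself. XTH18 had a difference of -2.01 (log2, adjusted p = 0.00393 by limma), with both effects positive and the larger one on B5. XTH33 had a difference of -1.06 (adjusted p = 0.00601), also with the larger effect on B5, on a probe set whose plain B5 values lie near 10. XTH20 had a difference of 0.99 (adjusted p = 0.0418), with the larger effect on NAA, and this call did not hold in 10 of 22 alternative settings. With 3 arrays in a group no search for a single outlying array was made.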

How the results depend on the processing

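Of 25 results for single genes in the 5 planned comparisons, 18 were called, and 12 of these were called in every alternative setting run. The other 6 are given with their values above, as is the difference for XTH33 that some settings called. With only the 2 groups compared, 2 of 5 genes were called for NAA with antimycin A, against 4, and all probe sets called went from 4994 to 3706 of 22746. The uncalled difference of antimycin A effects for XTH19, 0.15, changed sign to -0.14 without replicate 1 of B5 and -0.02 without replicate 3 of NAA (-0.14 to 0.41 over the 12 removals). Among uncalled pairs under NAA, XTH18 minus XTH20 went from -0.11 to 0.0273, XTH18 minus XTH33 from 0.04 to -0.0777 and XTH20 minus XTH33 from 0.15 to -0.10 with an added constant of 1. With 64, the effect of NAA on XTH18 minus XTH33 was -0.0197. These are differences near 0, and their cause was not tested. Called pairs lost the call under NAA for XTH19 minus XTH33 with a constant of 1 (exact permutation, adjusted p = 0.0692) and XTH16 minus XTH18 with 64 (exact permutation, adjusted p = 0.0867), while XTH18 minus XTH19 gained it with 64 (exact permutation, adjusted p = 0.0111) and under quantile normalization (exact permutation, adjusted p = 0.0286). Median centring left the median over all probe sets at -0.10 for NAA without and -0.13 for NAA with antimycin A, against -0.01 for both as deposited. Replicate numbers are shared between groups. Deviations from group means correlated at -0.10 to 0.35 in 18 same-numbered pairs of arrays, 5 of them above 0.1. Pairs with different numbers gave -0.33 to 0.28, and 6 of 12 arrays correlated best with their own number. The main fit did not pair the arrays by number, and whether the numbers stand for a shared factor was not tested. With the replicate block 7537, 5683, 4627, 5012 and 2159 probe sets were called in the 5 comparisons, against 7504, 5648, 4637, 4994 and 2168. Dim signal limits XTH33, XTH26 and other probe sets below the constant of 16.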
